A study of Mus musculus with 15 samples.

Results

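Liver macrophages that carried the surface integrin CD11c in mice with fatty liver disease were compared with the macrophages of healthy liver, gene by gene. The 5 arrays titled MC4R_WD CD11c-positive and the 5 titled WT_SD were chosen by their titles, which makes 10 of the 15 arrays of the series. The 5 arrays of CD11c-negative macrophages from the same diseased livers were read beside them. All cells were from male mice. The disease group was MC4R-KO, lacking the melanocortin 4 receptor, and ate a Western diet for 20 weeks from 8 weeks of age, with the disease state given as NASH, non-alcoholic steatohepatitis. Animals of the healthy group were wildtype, on a standard diet, with a normal disease state, and their age and strain are not given in the sources used here. After collagenase digestion of the liver, cells with high F4/80 were sorted by CD11c, and the wildtype cells are the CD11c-negative ones. Each RNA came from the pooled macrophages of 7 to 9 mice. Genotype, diet, disease and the CD11c gate therefore differ together between the groups and cannot be told apart. In pooled cells, moreover, fewer cells of a type and less RNA per cell cannot be told apart.

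Kupffer cells are the macrophages that line the liver sinusoids, where they take up bacteria, ageing red cells and lipoproteins from the blood. In fatty liver, macrophages also gather around dying, lipid-filled hepatocytes in rings called crown-like structures, and CD11c, encoded by Itgax, marks the cells in these rings. A macrophage state described in obese fat tissue and fatty liver, called lipid-associated, is known for Trem2, Gpnmb, Spp1, Cd9 and lysosomal genes. The melanocortin 4 receptor acts in the brain to restrain feeding, and mice without it become obese.

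Levels are given as log2 of the processed intensity minus the array's 75th percentile, so a value of 0 is the signal that 75% of an array's probes do not exceed. A difference of 1 is 2-fold, errors on differences are standard errors (SE) of the fit with n = 5 arrays a group, and "passed" means an adjusted p under 0.05 (limma, Benjamini-Hochberg over all genes). The 75th percentile itself lay between 399 and 445 intensity units on wildtype arrays and between 478 and 562 on CD11c-positive arrays. Of 13390 genes tested, 77.6% passed, with 51.4% higher and 26.3% lower in the CD11c-positive cells. At 2-fold or more, 891 genes (6.65%) were higher and 940 (7.02%) lower. With the normexp background correction these counts were 579 and 504. At 16-fold or more, 12 genes (0.0896%) were higher and 16 (0.119%) lower. For 69.3% of genes no array of one group overlapped the range of the other. The median difference over all genes was 0.16, and 66.2% of the genes that passed were higher. After quantile normalization that median was 0.038 and the share was 53.5%, so a small rise shared by a list is read against 0.16. The median SD between the 5 arrays of a group was 0.0751 in wildtype and 0.0700 in CD11c-positive cells, close to the SD of repeated spots on 1 array. Nothing in the labels says that the 5 arrays came from separate pools, so the p-values measure the spread between these arrays, which may be technical. Where a gene was not well above background on 3 or more arrays of its dimmer group, its fold is written as "at least": the mean of the brighter group over the lowest signal among well-detected probes on each array of the dimmer group, or over the gene's own signal where that was higher.

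**Figure D1:**
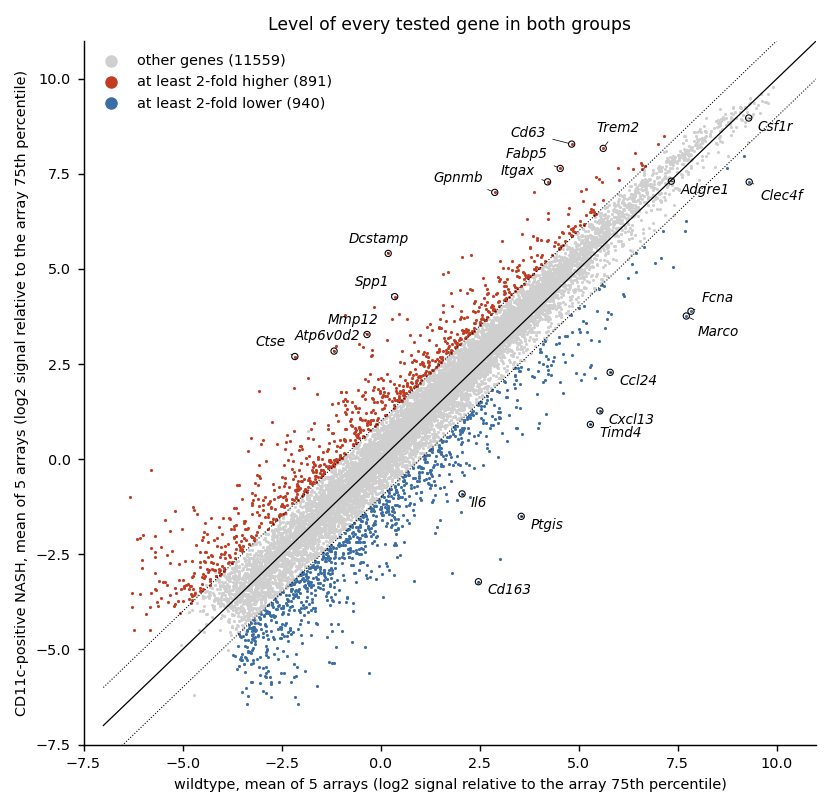
Mean level of each of 13390 genes in wildtype (horizontal) and CD11c-positive NASH macrophages (vertical), both as log2 signal relative to the array's 75th percentile. Red points are the 891 genes at least 2-fold higher and blue points the 940 at least 2-fold lower; dotted lines mark 2-fold, and Adgre1 lies on the line of equality while Cd163 and Dcstamp lie far from it.

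The gate could be read in the arrays. Itgax, the gene of CD11c itself, stood at 4.20, 4.22, 4.17, 4.24 and 4.24 on the wildtype arrays and at 7.27, 7.27, 7.32, 7.33 and 7.27 on the CD11c-positive arrays, 8.44-fold higher, and at a mean of 5.93 in the CD11c-negative NASH cells. The sort used CD11c, so this rise describes the gate. Adgre1, which encodes F4/80, differed by -0.03 ± 0.033 and did not pass, but after quantile normalization it passed as lower, at -0.37. Csf1r, the receptor for the macrophage growth factor, had mean levels of 9.29 and 8.97, a 1.25-fold fall. Fcgr1 was 1.5-fold higher, Lyz2 1.56-fold higher and Mertk 1.18-fold lower, all well above background in both groups, so both groups carried the defining macrophage genes. On none of the 15 arrays was the Mc4r probe well above background, and the deleted receptor could not be checked in these cells.

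The healthy Kupffer cell programme was lower in the CD11c-positive cells. Of 28 Kupffer cell genes tested, 21 fell, 4 rose and 3 did not pass, and 13 fell at least 2-fold. Their median difference was -0.97, against 0.16 over all genes. Timd4, which binds phosphatidylserine and marks resident macrophages, stood at 5.30, 5.27, 5.27, 5.34 and 5.29 on the wildtype arrays and at 0.92, 0.88, 0.99, 0.95 and 0.84 on the CD11c-positive arrays. The groups lay far apart, 20.8-fold, with a mean of 2.39 in the CD11c-negative NASH cells. Cd163, the haemoglobin-haptoglobin receptor, went from 2.48, 2.41, 2.44, 2.51 and 2.50 to -3.28, -3.41, -3.13, -3.16 and -3.12, a 51.5-fold fall, the largest among genes that passed without overlapping arrays, although 1 of the 5 CD11c-positive arrays did not detect the probe well above background. Fcna, a lectin-like opsonin, stood at 7.80, 7.80, 7.81, 7.88 and 7.88 in wildtype and 3.88, 3.87, 3.95, 3.89 and 3.85 in CD11c-positive cells, 15.4-fold lower. Each of these 3 genes was lower on every CD11c-positive array than on any wildtype array.

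Other members fell by various amounts. Marco, a scavenger receptor for bacteria, was 15.5-fold lower, Ptgis, prostacyclin synthase, 33.1-fold lower, and the complement gene C6 7.33-fold lower. Clec4f, a lectin confined to Kupffer cells in the mouse, read 9.27, 9.22, 9.31, 9.34 and 9.37 on the wildtype arrays and 7.24, 7.26, 7.31, 7.30 and 7.33 on the CD11c-positive arrays. That 4.04-fold fall left it far above background. The fatty acid carrier Fabp7 was 1.93-fold lower and Folr2, a folate receptor, 3.26-fold lower. Vsig4, which binds complement C3 fragments, was 2.31-fold lower, Spic, a transcription factor of iron-recycling macrophages, 1.94-fold lower, and Cd5l, a secreted lipid regulator, 1.33-fold lower. Nr1h3, encoding the liver X receptor alpha, was only 1.13-fold lower. Among the 4 that rose were the X-linked genes Xlr3b and Xlr4b, 1.52-fold and 1.65-fold higher. The same fit compared both diseased populations, where 53.1% of genes passed. CD11c-positive minus CD11c-negative NASH cells gave -1.48 ± 0.036 for Timd4, -1.82 ± 0.04 for Marco and -0.79 ± 0.036 for Clec4f on the log2 scale, and all 3 passed. Markers of sinusoidal endothelium fell as well, as given further on, and Cdh5 stands in both lists.

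Promoters of Kupffer cell genes were searched for TGCTGAC, the core of the sites of MAF factors, on either strand, because MAF proteins are known regulators of macrophage identity. It was present in 9.5% of the 21 Kupffer cell promoters of 300 bases, in Timd4 and Fcna, against 5.0% of all promoters and 8.7% of those of genes at least 2-fold lower. The PU.1 core GAGGAAGT was in 0 of the 21, against 3.9% of all. The 150 bases before the start of both genes are printed with the match in capitals (RefSeq, GRCm38.p6: Timd4 chr11:46810649-46810798, plus strand; Fcna chr2:25627975-25628124, minus strand); the Timd4 match is on the opposite strand.
Timd4: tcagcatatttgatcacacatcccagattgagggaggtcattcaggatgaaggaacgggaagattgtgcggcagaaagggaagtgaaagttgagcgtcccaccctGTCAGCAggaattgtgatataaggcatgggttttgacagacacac
Fcna: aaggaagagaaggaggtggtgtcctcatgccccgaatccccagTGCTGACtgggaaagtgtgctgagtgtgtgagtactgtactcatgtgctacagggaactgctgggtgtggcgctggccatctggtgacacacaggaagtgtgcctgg

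**Figure D2:**
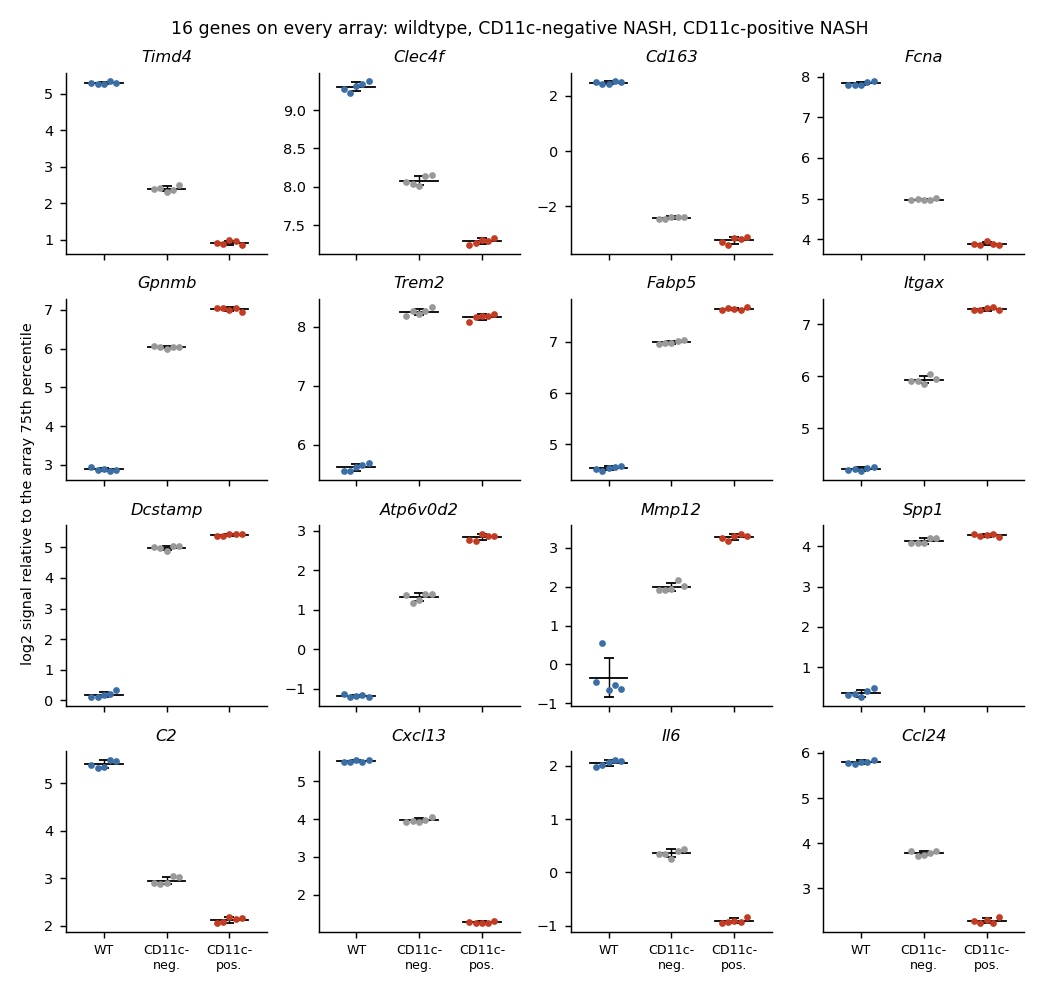
Level of 16 genes on each array (log2 signal relative to the array's 75th percentile) in wildtype, CD11c-negative NASH and CD11c-positive NASH macrophages; horizontal lines are means and bars the SD of 5 arrays. For each of the 16 genes the wildtype and CD11c-positive arrays do not overlap, and 1 wildtype array of Mmp12 sits above the other 4.

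Lipid-associated macrophage genes were mostly higher. Of 24 tested, 20 rose, 12 of them at least 2-fold, 1 fell and 3 did not pass, with a median of 1.15. Gpnmb, a lysosomal glycoprotein, stood at 2.93, 2.87, 2.90, 2.83 and 2.87 on the wildtype arrays and at 7.05, 7.04, 7.00, 7.04 and 6.94 on the CD11c-positive arrays, 17.5-fold higher. Trem2, the lipid-sensing receptor, went from 5.56, 5.55, 5.62, 5.66 and 5.69 to 8.09, 8.17, 8.18, 8.19 and 8.22, 5.86-fold higher. Trem2 stood at a mean of 8.25 in the CD11c-negative NASH cells, and the -0.083 ± 0.037 between the diseased populations did not pass. Fabp5, a cytosolic fatty acid carrier, read 4.52, 4.47, 4.54, 4.55 and 4.59 in wildtype and 7.62, 7.65, 7.64, 7.62 and 7.67 in CD11c-positive cells, 8.63-fold higher, and the groups were again wholly separate. Gpnmb and Fabp5 were also higher in CD11c-positive than in CD11c-negative NASH cells, by 0.98 ± 0.028 and 0.65 ± 0.026. The list's median between the diseased populations was only 0.124, against 0.015 over all genes and 1.15 between CD11c-positive and wildtype cells. The tetraspanins Cd63 and Cd9 were 11-fold and 6.17-fold higher, the galectin Lgals3 1.78-fold higher and Lpl, lipoprotein lipase, 3.2-fold higher. Not all lysosomal members moved: Ctsb at 0.012 ± 0.051 and Ctsl at -0.05 ± 0.032 did not pass. Ctsl passed in 4 of the 24 alternatives, among them at -0.072 without CD11c-positive replicate 3 and at -0.43 after quantile normalization.

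Genes of cell fusion and bone resorption, which multinucleated giant cells and osteoclasts share, held some of the largest rises. Of 22 tested, 15 rose, 2 fell and 5 did not pass, and the median was 0.49. Dcstamp, which is needed for macrophages to fuse, stood at 0.12, 0.12, 0.17, 0.20 and 0.34 on the wildtype arrays and at 5.38, 5.37, 5.45, 5.43 and 5.42 on the CD11c-positive arrays, 37.3-fold higher. Its partner Ocstamp was 3.17-fold higher. Atp6v0d2, a proton pump subunit of osteoclasts, read -1.13, -1.20, -1.18, -1.16 and -1.22 in wildtype and 2.78, 2.75, 2.93, 2.87 and 2.88 in CD11c-positive cells, 16.2-fold higher. No wildtype array came near a CD11c-positive array for either gene. Ctsk, the bone collagenase cathepsin K, was 3.79-fold higher, Acp5, tartrate-resistant acid phosphatase, 1.29-fold higher and Tnfrsf11a, the receptor RANK, 1.43-fold higher. Atp6v0d2 and Ctsk were also higher than in CD11c-negative NASH cells, by 1.52 ± 0.048 and 1.02 ± 0.058. The list's median between the diseased populations was only 0.03, against 0.015 over all genes. Its mean level was 1.72 to 1.82 in wildtype, 2.71 to 2.79 in CD11c-negative and 2.82 to 2.91 in CD11c-positive cells. The osteoclast protease Mmp9 was 1.43-fold lower. Nfatc1, the master factor of osteoclasts, differed by -0.24 on the probe used, and its probes lay between -0.24 and 0.37.

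Subunits and enzymes of acid compartments were mostly higher. Of 20 subunits of the vacuolar proton pump, which acidifies lysosomes, 17 rose and 1 fell, with a median of 0.45. Atp6v0a1 was 3.11-fold higher, Atp6v1b2 1.98-fold and Atp6v1a 1.82-fold. The subunit that fell, Atp6v0e2, was 2.62-fold lower, on a probe that 4 of the CD11c-positive arrays detected. Among 40 lysosomal hydrolases and membrane proteins, 32 rose, 6 fell and the median was 0.41. Psap, the precursor of the saposins, was 2.54-fold higher and Gusb, beta-glucuronidase, 2.49-fold higher. Npc1 and Npc2, which export cholesterol from lysosomes, were 1.78-fold and 1.76-fold higher. Gla, alpha-galactosidase, was 1.16-fold lower. Cd68 was not among the genes tested. Of 22 cathepsins and cystatins, 15 rose and 4 fell. Their mean level was 2.95 to 2.98 in wildtype, 4.01 to 4.15 in CD11c-negative and 3.77 to 3.85 in CD11c-positive cells. Ctse, an aspartic protease, went from -2.16, -2.11, -2.14, -2.14 and -2.28 to 2.65, 2.71, 2.69, 2.73 and 2.73, 29.1-fold higher with no overlap. Ctsj was undetected above background in wildtype (0 of 5 arrays) and was at least 9.26-fold higher. Ctsd, a major lysosomal protease, was 1.7-fold higher on the probe used, and its probes lay between 0.76 and 1.42. Ctsf was 2.05-fold lower.

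Promoters of these genes were searched for an E-box on either strand, because most of the genes were higher. CACGTG, the core of the site known for the lysosomal factors TFEB, TFE3 and MITF, was present in 31.2% of the 32 lysosomal promoters, 28.6% of the 14 proton pump promoters and 29.4% of the 17 cathepsin and cystatin promoters, against 11.1% of all promoters and 11.8% of those of genes at least 2-fold higher. The longer TCACGTGA, which contains CACGTG, was in 21.4% of the proton pump promoters and 2.0% of all. Mitf itself was 2.05-fold higher on the probe used, with probes between 0.43 and 1.04, and Tfeb 1.5-fold higher. Binding by these factors was not tested. Ctsd, Atp6v1a and Naglu, a heparan sulphate hydrolase 1.79-fold higher, are printed with CACGTG in capitals (RefSeq, GRCm38.p6: Ctsd chr7:142387828-142387977, minus; Atp6v1a chr16:44139260-44139409, minus; Naglu chr11:101069944-101070093, plus).
Ctsd: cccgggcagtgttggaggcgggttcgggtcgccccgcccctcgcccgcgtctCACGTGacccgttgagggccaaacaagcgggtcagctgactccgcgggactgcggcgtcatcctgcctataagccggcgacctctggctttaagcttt
Atp6v1a: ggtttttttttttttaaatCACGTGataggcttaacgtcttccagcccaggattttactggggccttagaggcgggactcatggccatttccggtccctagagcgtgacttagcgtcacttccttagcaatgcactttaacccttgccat
Naglu: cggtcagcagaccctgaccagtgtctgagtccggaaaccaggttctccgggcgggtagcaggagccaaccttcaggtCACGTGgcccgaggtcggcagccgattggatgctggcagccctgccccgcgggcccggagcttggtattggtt

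Matrix-degrading enzymes and their inhibitors had the highest median of the lists described, 1.54. Of 21 tested, 16 rose, 12 at least 2-fold, and 4 fell. Mmp12, macrophage elastase, stood at -0.46, 0.54, -0.65, -0.52 and -0.64 on the wildtype arrays and at 3.25, 3.17, 3.31, 3.36 and 3.29 on the CD11c-positive arrays, 12.3-fold higher. Wildtype replicate 2 was above its group, and all 5 still lay below every CD11c-positive array. Mmp12 was higher than in CD11c-negative NASH cells by 1.29 ± 0.18. The list's median between the diseased populations was 0.21, against 0.015 over all genes. Its mean level was 0.08 to 0.14 in wildtype, 1.06 to 1.17 in CD11c-negative and 1.16 to 1.26 in CD11c-positive cells. The gelatinase Mmp2, the membrane-bound Mmp14 and the collagenase Mmp13 were 4.47-fold, 4.09-fold and 3.29-fold higher, and the sheddase Adam8 6.33-fold higher. Of the plasminogen system, the activator Plau was 3.0-fold higher and its receptor Plaur 3.11-fold higher. Timp1, an inhibitor of the metalloproteinases, was 7.81-fold higher on a probe well above background on 4 wildtype arrays, and Timp3 was 3.0-fold lower.

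Signals to fibroblasts and vessels also changed. Of 26 profibrotic and repair factors, 19 rose and 5 fell, with a median of 0.87. Spp1, the matrix cytokine osteopontin, read 0.31, 0.32, 0.25, 0.41 and 0.47 in wildtype and 4.30, 4.25, 4.28, 4.31 and 4.22 in CD11c-positive cells, 15.1-fold higher, and 4.13 on average in the CD11c-negative NASH cells. Gdf15, a stress-induced TGF-beta relative, was 4.27-fold higher. The fibroblast mitogens Pdgfa and Pdgfb were 2.53-fold and 1.89-fold higher, Tgfb3 3.49-fold and Tgfb1 1.42-fold, the oncostatin gene Osm 3.02-fold and thrombospondin Thbs1 2.82-fold. Gdf3 and Vegfa rose on each probe, Gdf3 between 2.08 and 3.27 and Vegfa between 1.94 and 2.55 on the log2 scale. Bmp2, Hbegf and Sparc were 4.12-fold, 2.01-fold and 1.84-fold lower. Bmp2 is in the endothelial list too, whose genes fell as given further on. Igf1 at -0.0038 ± 0.033 did not pass, but passed as lower at -0.36 after quantile normalization and at -0.33 with the mean of its probes.

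FOS and JUN dimers bind the AP-1 element, which was searched in a loose form, TGANTCA with any base at N. It was present in 40.0% of 15 metalloproteinase-list promoters and 27.8% of 18 lipid-associated promoters, against 6.7% of all. Its share was 11.4% in promoters of genes at least 2-fold higher and 9.8% in those of genes at least 2-fold lower. Mmp12, Itgax and Trem2 are shown with it in capitals (RefSeq, GRCm38.p6, plus strand: Mmp12 chr9:7347224-7347373; Itgax chr7:128129400-128129549; Trem2 chr17:48346251-48346400). The match reads TGAGTCA in Mmp12 and Itgax but TGAATCA in Trem2, and the forms were not counted apart. Counted from the start of the gene, the first base of the match was at -44 in Mmp12, -56 in Itgax and -9 in Trem2. Binding was not tested. Among the factors, Fos was 1.77-fold higher, Junb 1.71-fold higher, and Jun 1.08-fold lower.
Mmp12: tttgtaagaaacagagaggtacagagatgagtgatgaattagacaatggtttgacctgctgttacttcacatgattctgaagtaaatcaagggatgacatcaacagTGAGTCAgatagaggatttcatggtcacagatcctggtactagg
Itgax: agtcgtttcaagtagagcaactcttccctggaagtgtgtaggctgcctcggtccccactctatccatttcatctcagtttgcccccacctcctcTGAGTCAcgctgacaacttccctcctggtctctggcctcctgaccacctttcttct
Trem2: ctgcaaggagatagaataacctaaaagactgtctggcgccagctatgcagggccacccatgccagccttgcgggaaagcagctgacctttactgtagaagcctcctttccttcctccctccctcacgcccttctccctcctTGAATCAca

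**Figure D3:**
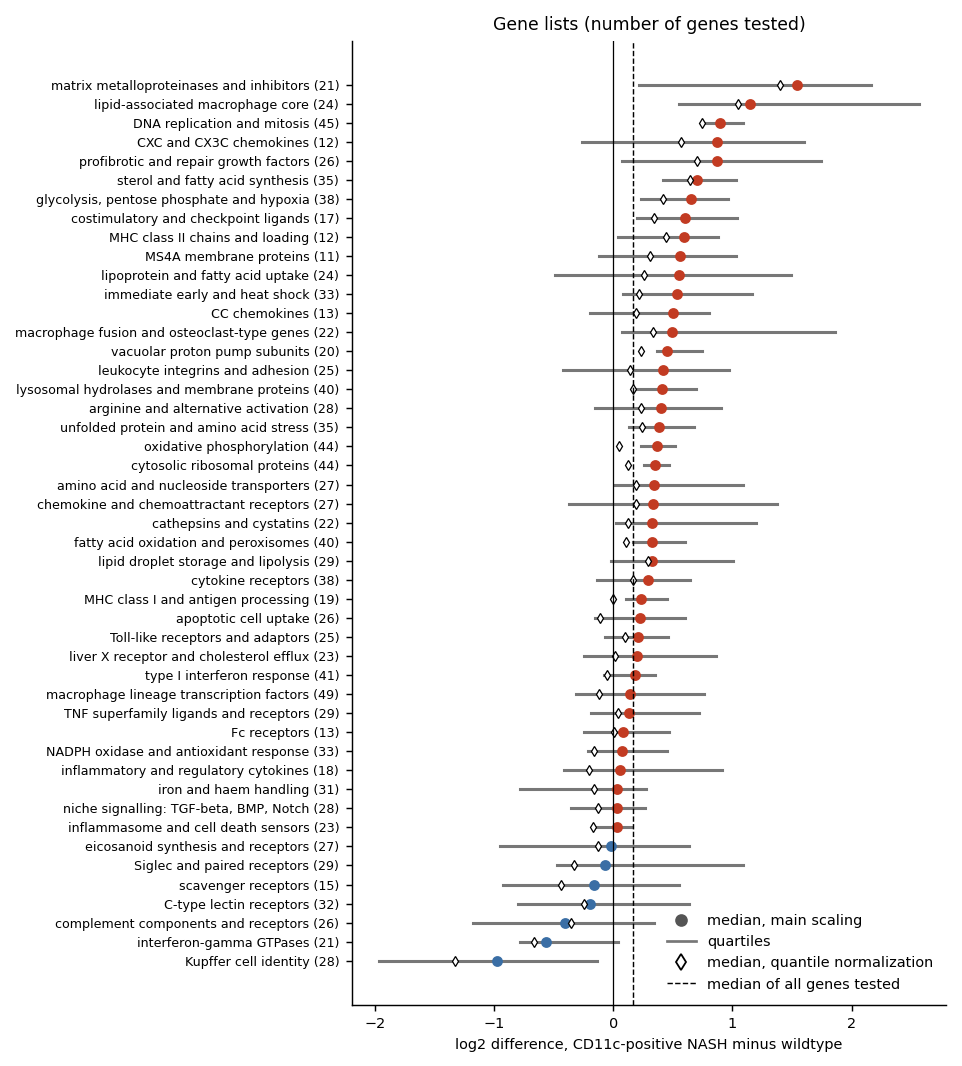
Median log2 difference, CD11c-positive NASH minus wildtype, for each list of macrophage functions (filled circles) with its quartiles (lines), and the median after quantile normalization (diamonds); the dashed line is the median of all genes, 0.16. Metalloproteinases, lipid-associated genes and DNA replication lie highest and Kupffer cell identity lowest of these lists, while the medians of 9 lists change sign with quantile normalization, 1 of them, inflammasome genes, from 0.028 to -0.17.

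Lipid uptake and storage genes held rises and falls. Olr1, a receptor for oxidised LDL, was well above background on 1 wildtype array and was at least 5.0-fold higher, and the fatty acid receptor and translocase Cd36 was 2.75-fold higher. Angptl4, an inhibitor of lipoprotein lipase, went from 0.68, 0.55, 0.71, 0.72 and 0.66 to 3.63, 3.66, 3.68, 3.71 and 3.71, 8.07-fold higher without overlap. Of 24 uptake genes 14 rose and 9 fell, the median being 0.55. Apoc1 and the endothelial anchor Gpihbp1 were 1.9-fold and 2.78-fold lower. Of 29 droplet genes 17 rose and 7 fell, shares near those of all genes. Plin2, the coat protein of lipid droplets, was 3.79-fold higher, and Mogat2, a monoacylglycerol acyltransferase, at least 3.68-fold higher against wildtype arrays that were not well above background. Mgll, which hydrolyses monoacylglycerol, was 2.1-fold lower. The cholesterol exporters Abca1 and Abcg1, both targets of the liver X receptors, were 2.47-fold and 2.31-fold higher.

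Genes of sterol synthesis were mostly higher. Of 35 genes of sterol and fatty acid synthesis 30 rose, 4 fell, and the median was 0.70. The desaturases Scd2 and Scd1 were 3.12-fold and 2.33-fold higher, and the synthases Hmgcs1 and Fdps 2.13-fold and 2.17-fold higher. Srebf2, the factor that switches on this pathway when sterol is low, was 1.88-fold higher. Insig1, which holds that factor back, was 1.55-fold lower. A sterol regulatory element spelled TCACNCCAC was in 4.0% of the 25 promoters of this list and 1.4% of all. Among 40 oxidation genes 31 rose and 7 fell, with a median of 0.33. Pparg, a lipid-sensing nuclear receptor, stood out at 3.47-fold.

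Cytokines did not move in 1 direction. Of 18 tested, 9 rose and 8 fell, and the median was 0.059, or -0.20 after quantile normalization. Il6, the acute-phase cytokine, stood at 1.98, 2.02, 2.07, 2.11 and 2.09 on the wildtype arrays and at -0.95, -0.93, -0.91, -0.93 and -0.83 on the CD11c-positive arrays, 7.82-fold lower, with every CD11c-positive array below every wildtype array. Tnf was 1.84-fold higher, Il10, an anti-inflammatory cytokine, 2.23-fold higher and Il1rn, the interleukin 1 receptor antagonist, 4.35-fold higher. Il1b was 1.14-fold lower. Ptgs2, inducible cyclooxygenase, was 2.4-fold higher.

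Chemokines split by gene. Of 13 CC chemokines 8 rose and 5 fell. Ccl9 was 8.89-fold higher and Ccl5 2.44-fold higher, while Ccl22, well above background on 1 wildtype array, was at least 3.9-fold higher. Ccl24, an eosinophil attractant, went from 5.77, 5.75, 5.79, 5.81 and 5.85 to 2.28, 2.24, 2.30, 2.22 and 2.37, 11.4-fold lower. Cxcl13, the B cell attractant, read 5.52, 5.51, 5.57, 5.51 and 5.56 in wildtype and 1.28, 1.24, 1.26, 1.25 and 1.31 in CD11c-positive cells, 19.2-fold lower, and 3.97 on average in CD11c-negative NASH cells. Each was lower on every CD11c-positive array than on any wildtype array. The neutrophil attractants Cxcl1 and Cxcl2 were 4.88-fold and 3.44-fold higher. Of 12 CXC and CX3C chemokines 8 rose and 4 fell. Their mean level was 1.47 to 1.51 in wildtype, 2.38 to 2.54 in CD11c-negative and 2.05 to 2.10 in CD11c-positive cells. Among receptors, Cx3cr1 and Ccr2, both high in recruited monocytes, were 4.02-fold and 3.67-fold higher, and the formyl peptide receptor Fpr1 3.47-fold lower. Ccr7, the lymph-node homing receptor, was 2.73-fold higher than in wildtype and stood at 2.46, 0.96 and 3.90 on average in wildtype, CD11c-negative and CD11c-positive cells.

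More genes of antigen presentation rose than fell. Of 12 class II chains and loading genes 8 rose and 2 fell, the median being 0.59. H2-Aa, the I-A alpha chain, was 2.43-fold higher and the loading chaperone H2-DMb1 2.04-fold higher, whereas H2-Ab1, the I-A beta chain, differed by -0.091 ± 0.038. That small fall passed with all arrays, but not on either slide alone and not when wildtype replicate 2, 3, 4 or 5 or CD11c-positive replicate 1, 4 or 5 was left out, with values between -0.091 and -0.074 in those 7 fits. Among 17 costimulatory and checkpoint ligands 13 rose and 4 fell. Cd276, a T cell inhibitory ligand also called B7-H3, was at background on all 5 wildtype arrays and was at least 6.42-fold higher. With the normexp correction its log2 difference was 1.25, a smaller fold than that. Cd83 was 2.51-fold higher, Havcr2, the receptor TIM-3, 3.2-fold higher and Cd86 1.19-fold lower. Cd1d1, which presents lipids to natural killer T cells, was 3.22-fold lower.

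Complement genes were mostly lower. Of 26 complement genes 16 fell, 9 rose and the median was -0.40. The largest of the 9 rises was that of Itgax, the gene of the CD11c gate, so it describes the sort. C2, a component of the classical and lectin pathways, stood at 5.38, 5.32, 5.35, 5.50 and 5.47 on the wildtype arrays and at 2.05, 2.08, 2.19, 2.14 and 2.17 on the CD11c-positive arrays, 9.7-fold lower. C4b was 5.03-fold lower, properdin Cfp 2.13-fold and the decay-accelerating Cd55 4.25-fold. The anaphylatoxin receptors C5ar1 and C3ar1 rose, 2.8-fold and 1.6-fold. Of 32 C-type lectins 16 fell and 11 rose. Cd209f was 50.2-fold lower and Mrc1, the mannose receptor, 1.76-fold lower, while Clec4e, a sensor of dead cells and fungal lipid, was 3.34-fold higher. Of 25 Toll-like receptors and adaptors 15 rose (60.0%) and 6 fell (24%), near the 51.4% and 26.3% of all genes. Tlr1 and Tlr2, which sense bacterial lipopeptides, were 2.63-fold and 1.69-fold higher and the coreceptor Cd14 2.25-fold, while Tlr4 at -0.0046 ± 0.065 did not pass, but passed at -0.20 after quantile normalization. Anxa1, which promotes clearance of dying cells, was 5.15-fold higher, and Gas6, a bridge to dying cells, 1.82-fold lower. Siglecf was 7.75-fold higher, and the paired receptors Pira2 and Cd300e were 4.21-fold and 4.57-fold lower.

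**Figure D4:**
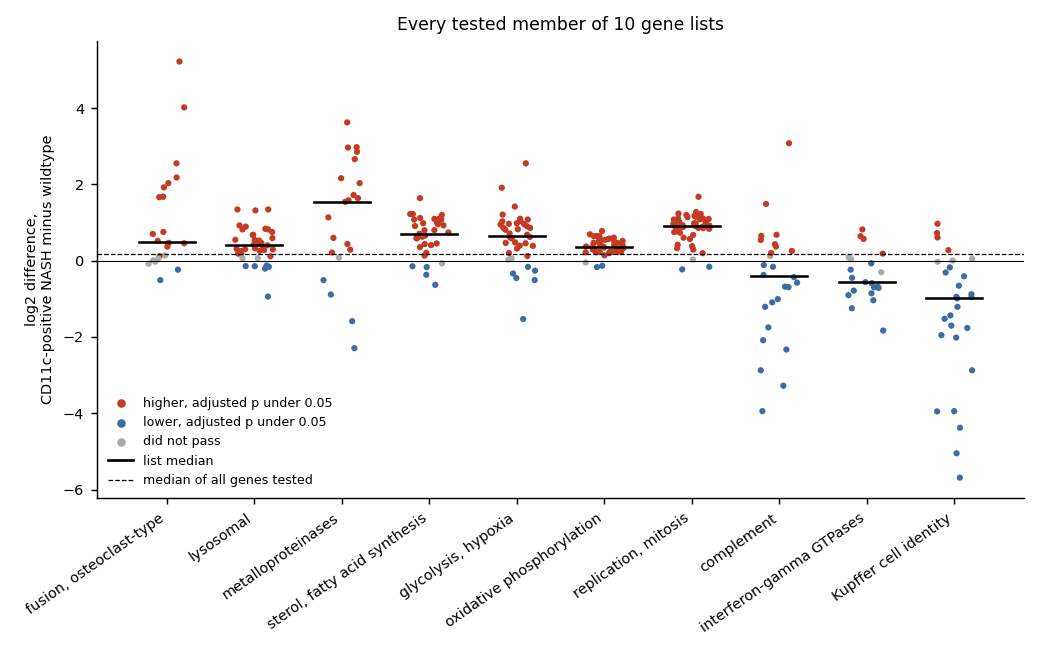
Log2 difference, CD11c-positive NASH minus wildtype, for every tested member of 10 gene lists; red and blue points passed (adjusted p under 0.05), grey points did not, bars are list medians and the dashed line the median of all genes, 0.16. Sterol synthesis, glycolysis and replication are mostly red, complement, interferon-gamma GTPases and Kupffer cell identity mostly blue, and oxidative phosphorylation is a narrow band with a median of 0.37 that was 0.05 after quantile normalization.

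Interferon-gamma and type I interferon genes were counted apart. Of 21 genes of the interferon-gamma response, mostly GTPases that attack intracellular microbes, 14 fell, 4 rose and the median was -0.56. Gbp4 went from 2.42, 2.43, 2.46, 2.51 and 2.49 to 0.72, 0.60, 0.58, 0.61 and 0.65, 3.56-fold lower, and Gbp7 and Irgm2 were 2.38-fold and 2.06-fold lower. Irf1, a factor that drives this response, was 1.6-fold lower, while Gbp2 was 1.48-fold higher. Ifng itself, a lymphocyte product, was 2.0-fold lower beside the falls of T cell markers given further on. Of 41 type I interferon genes 24 rose (58.5%) and 9 fell (22%), near the 51.4% and 26.3% of all genes, with a median of 0.18 that was -0.05 after quantile normalization. Ifi44 was 2.93-fold higher, Isg15 1.39-fold higher and Ifitm3, which blocks viral entry, 1.61-fold lower. Members of both lists carry the interferon-stimulated response element often: 76.9% of 13 promoters of the GTPase list and 53.1% of 32 of the type I list held it on either strand, against 4.0% of all. Gbp7 and Irgm2 are shown with the element in capitals (RefSeq, GRCm38.p6, plus strand: Gbp7 chr3:142530186-142530335; Irgm2 chr11:58214827-58214976); the Gbp7 match is on the opposite strand.
Gbp7: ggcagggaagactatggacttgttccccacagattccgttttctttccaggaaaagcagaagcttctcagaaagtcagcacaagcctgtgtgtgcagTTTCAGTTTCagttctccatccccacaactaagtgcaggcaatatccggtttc
Irgm2: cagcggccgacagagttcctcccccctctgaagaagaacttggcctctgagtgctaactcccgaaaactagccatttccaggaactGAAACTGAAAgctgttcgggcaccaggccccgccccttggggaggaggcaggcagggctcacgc

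Glycolysis and hypoxia genes were higher. Of 38 tested, 30 rose, 6 fell and the median was 0.65. The glycolytic enzymes Pgam1, Pgk1 and Pkm were 2.31-fold, 2.11-fold and 1.95-fold higher, the glucose carrier Slc2a1 1.82-fold and lactate dehydrogenase Ldha 1.87-fold. Adm, adrenomedullin, a gene known to respond to hypoxia, was 2.89-fold lower. Of 44 respiratory chain genes 41 rose, and of 44 cytosolic ribosomal proteins 42 rose and 0 fell. Their medians of 0.37 and 0.35 dropped to 0.05 and 0.12 after quantile normalization. Of 77 mitochondrial ribosomal proteins 73 rose, and of 48 proteasome subunits 44. In amino acid supply, Asns, asparagine synthetase, went from -0.94, -0.95, -0.97, -0.80 and -0.86 to 1.38, 1.41, 1.45, 1.44 and 1.45, 5.03-fold higher, Psat1, of serine synthesis, was 3.52-fold higher and the cationic amino acid carriers Slc7a2 and Slc7a1 4.72-fold and 2.84-fold. The creatine carrier Slc6a8 was 12-fold higher. The glutamate carrier Slc1a2 was 7.99-fold lower.

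Genes of DNA replication and mitosis rose together. Of 45 tested, 42 rose, 2 fell, 14 rose at least 2-fold and the median was 0.90. Top2a, the topoisomerase of dividing cells, stood at 0.47, 0.41, 0.41, 0.60 and 0.48 on the wildtype arrays and at 1.62, 1.60, 1.78, 1.73 and 1.64 on the CD11c-positive arrays, 2.29-fold higher. Its mean in CD11c-negative NASH cells was 0.72, and the 0.96 ± 0.045 above that passed too. Mki67, which encodes the proliferation antigen Ki-67, was 1.48-fold higher, cyclin A2, Ccna2, 2.34-fold and the replicative helicase subunit Mcm5 2.03-fold. The cell cycle inhibitor Cdkn1a rose as well, 3.19-fold. The list's median between CD11c-positive and CD11c-negative NASH cells was 0.52, against 0.015 over all genes.

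Genes of iron recycling, lipid mediators and arginine use moved in both directions. Of 31 iron and haem genes 11 rose (35.5%) and 13 fell (41.9%). Hmox1, the haem-degrading oxygenase, was 1.99-fold lower, the iron exporter Slc40a1 2.7-fold lower and the haem carrier Slc48a1 2.77-fold lower, while the storage gene Fth1 at 0.034 ± 0.02 did not pass, and passed at 0.095 after quantile normalization. Beside these falls, 6 of 7 erythroid markers fell, as given further on. Lcn2, an iron-siderophore binder, was 6.0-fold higher, but it is also a neutrophil marker and its level was highest, 6.27 on average, in the CD11c-negative NASH cells. Of 27 eicosanoid genes 12 rose and 12 fell. The leukotriene C4 synthase Ltc4s was 4.19-fold lower, the prostaglandin-degrading Hpgd 2.89-fold lower and Ptgs1 2.08-fold lower, whereas the prostaglandin receptor Ptger4 was 3.2-fold higher. Of 28 genes of arginine use and alternative activation 20 rose (71.4%, against 51.4% of all genes) and 7 fell, with a median of 0.40. Among genes of alternative activation, Retnla was 3.63-fold lower and Chil3 3.74-fold higher. Arg1 at -0.13 ± 0.064 did not pass, but passed in 4 of the 24 alternatives, 1 of them at -0.16 without CD11c-positive replicate 5.

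Among regulators of the lineage the shares were near those of all genes for rises and somewhat above for falls. Of 49 factors 26 rose (53.1%, against 51.4% of all genes) and 17 fell (34.7% against 26.3%), with a median of 0.14 that was -0.12 after quantile normalization. Egr2 and Nfil3 were 5.53-fold and 5.5-fold higher, the stress factor Atf3 3.21-fold and Bhlhe40 2.67-fold. Maf was 1.61-fold lower, Klf2 1.97-fold lower and Hes1, a Notch target, 2.49-fold lower. Spi1, which encodes the myeloid factor PU.1, at 0.043 ± 0.045 did not pass. The TGF-beta receptor gene Tgfbr1 rose on each of its probes, between 0.99 and 1.62, and Bmpr1a, a BMP receptor, was 8.2-fold lower.

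Among the 15 largest rises were genes that no list of macrophage functions held. Dpys, dihydropyrimidinase of pyrimidine breakdown, went from -3.34, -3.10, -2.78, -3.04 and -3.06 to 1.76, 1.81, 1.78, 1.81 and 1.84, 29.1-fold higher. Vsig8 read -0.84, -1.10, -0.73, -0.86 and -0.96 in wildtype and 3.76, 3.76, 3.82, 3.79 and 3.83 in CD11c-positive cells, 25.8-fold higher, and 1.82 on average in the CD11c-negative NASH cells. Emp1, an epithelial membrane protein, was 18-fold higher, Stra6l 16.8-fold and the synaptogyrin Syngr1 15.7-fold. Scin, an actin-severing protein, Htra4, a serine protease, and Sel1l3 were at least 4.64-fold, at least 4.32-fold and at least 6.08-fold higher against wildtype arrays not well above background. Among the 15 largest falls, Adra2c, an adrenergic receptor, was at least 15-fold lower, the fatty acid transporter Slc27a6 at least 8.2-fold lower, and Srcin1, Mcf2, Pcdhac2 and Rflna at least 7.83-fold, at least 6.11-fold, at least 4.32-fold and at least 4.14-fold lower, none of them well above background on a CD11c-positive array. Raver2, an RNA-binding protein, was 28-fold lower. The neurotrophin Ntf3, above background on 1 CD11c-positive array, was at least 10.3-fold lower and Plekhg4, above it on 2, at least 11.8-fold lower. Nid2, a basement membrane protein, was 16.4-fold lower, on a probe above background on 4 of the 5.

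**Figure D5:**
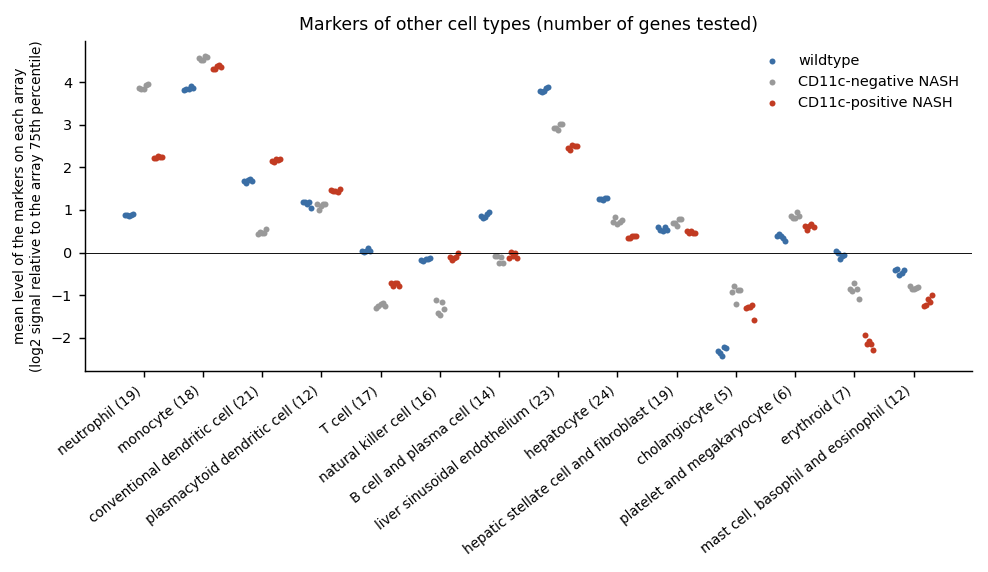
Mean level of the markers of 14 other cell types on each array (log2 signal relative to the array's 75th percentile) in the 3 groups. Endothelial, hepatocyte, T and B cell markers lie lower in CD11c-positive than in wildtype macrophages, neutrophil markers lie higher in both diseased populations and highest in the CD11c-negative cells.

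Markers of other cells moved with these results. Of 23 sinusoidal endothelial genes 21 fell and 1 rose, and their mean level went from 3.76 to 3.88 on wildtype arrays to 2.41 to 2.52 on CD11c-positive arrays. Of these, Cdh5, Clec4g, Stab2, Mrc1 and Bmp2 stand in functional lists as well; Cdh5, vascular cadherin, was 3.87-fold lower and Stab2, a hyaluronan scavenger, 2.06-fold lower. Of 24 hepatocyte genes 21 fell and 0 rose, with Alb, albumin, 2.44-fold lower. Of 17 T cell genes 15 fell, their mean level going from 0.013 to 0.099 in wildtype to -0.78 to -0.71, and of 14 B and plasma cell genes 11 fell. Of 19 neutrophil genes 14 rose and 5 fell, their mean level going from 0.86 to 0.92 in wildtype to 2.21 to 2.26, with 3.83 to 3.94 in CD11c-negative NASH cells. The granule gene Camp was 9.45-fold higher; Mmp8, Lcn2 and Chil3 belong with these. Of 21 conventional dendritic cell genes 16 rose and 3 fell, with mean levels of 1.63 to 1.72 in wildtype, 2.13 to 2.20 in CD11c-positive and 0.43 to 0.56 in CD11c-negative NASH cells. At least 2-fold, 3 of these 21 genes rose and 1 fell, and the list's median was 0.62. Flt3, Ccr7 and Cd209a, genes known from dendritic cells, were 2.31-fold, 2.73-fold and 2.51-fold higher, and CD11c is a dendritic cell marker too. Of 18 monocyte genes 11 rose (61.1%) and 4 fell (22.2%), near the 51.4% and 26.3% of all genes. Of 7 erythroid genes 6 fell, 5 of them at least 2-fold, with the lowest median of any list, -2.39, and 1 of them stands in the iron list; their mean level went from between -0.14 and 0.029 on wildtype arrays to between -2.29 and -1.94. Of 12 mast cell, basophil and eosinophil genes 10 fell and 2 rose, Siglecf being 1 of these 2. Stellate cell genes divided, with 8 of 19 higher and 11 lower, and natural killer cell genes too, with 8 of 16 higher and 6 lower. Of 12 plasmacytoid dendritic cell genes 7 rose and 4 fell, of 6 platelet genes 3 rose and 2 fell, and of 5 bile duct genes 4 rose and 1 fell. Ly6g of neutrophils and Epcam and Krt19 of bile duct cells were not among the genes tested. The part of these cells in the falls of endothelial, hepatocyte, lymphocyte, erythroid and mast cell genes was not tested. Nor was their part in the rises of neutrophil and dendritic genes and of single monocyte genes.

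Leaving out each of the 10 arrays in turn gave between 1809 and 1845 genes changed at least 2-fold, against 1831 with all. Some sizes depended on how signals were scaled. With the normexp correction, 21 of the 214 named genes that passed differed by less, by over 1.5 times on the log2 scale: Adra2c, Atp6v0e2, Bmpr1a, Ccl22, Cd276, Ctsj, H2-Ab1, Htra4, Mcf2, Mogat2, Ntf3, Olr1, Pcdhac2, Plekhg4, Rflna, Scin, Sel1l3, Slc27a6, Slc7a2, Srcin1 and Timp1. Of these, only H2-Ab1 lost its call. Some genes written with "at least" fell short of that bound. Adra2c differed by -2.63 with normexp, where the bound was a fall of 3.91 on the log2 scale. Ccl22 differed by 0.87, where the bound was 1.96. With quantile normalization 14 differed by less and 9 by more. Rises became smaller for Isg15 (0.14), Fcgr1 (0.29), Gbp2 (0.28), Tnfrsf11a (0.26), Lyz2 (0.32), Fos, Mki67, Tgfb1, Npc2, Tlr2, Atp6v1a, H2-DMb1 and Ldha, and the fall of Cd5l became smaller (-0.26). Falls became larger for Jun (-0.48), Nr1h3 (-0.54), Il1b (-0.57), Mertk, Gla, Cd86, Nfatc1, Irf1 and Ifitm3. Probes without a gene name were not read here beyond their number, and 3329 genes stood on the brightest of several probes. Of 311 genes with several probes that changed at least 2-fold, 23 had a probe of opposite sign.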

How the data were processed

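Macrophage RNA was measured on 15 one-colour Agilent arrays on 2 slides. Per the file headers, each deposited file holds spot intensities, and gProcessedSignal is the background-subtracted signal, extracted with Agilent Feature Extraction 10.7.3.1 per the submitters' processing notes. A deposited value table of log2 values, made by the authors, differed from the recomputed levels by a median of 0.00146 and was used as an alternative. No RNA quality values were used here.

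Control and outlier spots were left out, repeated spots averaged, and log2(processed intensity) was taken minus each array's 75th percentile. Probes well above background on 4 of 5 arrays of a group were kept, 28175 of 55681. They were named by matching their transcript identifiers to RefSeq genes, which named 17342 of them. The brightest named probe stood for its gene, giving 13390 genes. Between 45.8% and 58.0% of spots per array were well above background; the number of arrays limits the precision.

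All 15 arrays were fitted in R 4.3.3 with limma 3.58.1 (lmFit, eBayes; 2-sided, Benjamini-Hochberg over all genes) and group means, after the method was tested on simulated data. "At least" folds were used for genes detected on 0 to 2 arrays of the dimmer group; for 1 or 2 arrays this was decided after the results were seen. Motifs were searched on both strands of RefSeq promoters, matched for 10701 genes (79.9%). Alternatives covered background correction, normalization, filters, slide, replicate number, probe choice, variance model, array weights, the deposited table and leaving out arrays.

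The comparison, the gene lists and the motifs were chosen with earlier results of these data known. Genes named were the 15 largest rises and falls among named genes without overlap, predicted and immune receptor genes left out, then per list the 4 largest changes, the largest opposite change and the 2 brightest, plus members whose role needed a value. Unnamed probes and the CD11c-negative against wildtype comparison were left out, and a few genes are not reported here.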

Additional observations from a re-analysis of the deposited data

Results flagged for a closer look

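In 19 of 444 groups of 5 arrays, over the genes named, 1 array stood apart from the other 4 by Dixon's criterion; chance gives about 1 in 20 groups. Wildtype replicate 2 was the array in 4 of them and CD11c-positive replicate 5 in 4. Levels are log2 relative to the array's 75th percentile.

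Among genes that rose in the CD11c-positive cells, the widest gap was that of macrophage elastase Mmp12, at 0.54 on wildtype replicate 2 and -0.65 to -0.46 on the others. Cd276 was -5.47 on wildtype replicate 3 against -4.52 to -4.28, and not well above background on any of them. Among genes that fell, Atp6v0e2 was -2.43 on CD11c-positive replicate 5 against -3.61 to -3.33, and Bmpr1a -2.57 on CD11c-positive replicate 2 against -3.39 to -3.21. Cd209f was -2.90 on CD11c-positive replicate 5 against -2.62 to -2.53.

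The other gaps were below 0.2. On wildtype arrays, replicate 2 read 1.14 for C5ar1, 4.30 for Gdf15 and 4.55 for Pira2. Cxcl1 was 1.67 on replicate 3, Lcn2 1.90 and S100a4 4.19 on replicate 4, Ctse -2.28 on replicate 5 and Gla 8.14 on replicate 1. On CD11c-positive arrays, replicate 5 read 1.47 for Npc1 and 2.83 for Siglecf. Replicate 3 read 2.76 for Cd1d1 and 6.78 for Ctsl, and replicate 2 read 1.44 for Plau and -0.77 for Timp1.

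Outside the named genes, 441 of 10833 kept probes without a gene name were at least 2-fold higher in CD11c-positive cells and 881 at least 2-fold lower.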

How the results depend on the processing

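The comparison was recomputed under 24 alternatives, 10 of which left out 1 array. Of 222 named genes, 213 kept their direction and side of the threshold under all 24. With the normexp correction 1083 genes changed at least 2-fold, 579 higher and 504 lower, against 1831, and 10243 passed. Keeping only probes well above background on all 15 arrays gave 567 at least 2-fold lower. With quantile normalization 5376 genes passed as higher and 4666 as lower. With slide as a block 10916 passed, and 9697 and 10097 on slide 1 and slide 2 alone. Leaving out 1 array gave 10136 to 10308 genes that passed, 6705 to 6875 higher and 3416 to 3497 lower, and at least 2-fold 1809 to 1845, 872 to 907 higher and 914 to 943 lower.

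Whether the replicate numbers pair the arrays could not be decided. Same-numbered arrays had correlated deviations from -0.171 to 0.273, and 2 of 5 numbers matched best. Between wildtype and CD11c-positive arrays the median correlation was 0.19 on the same slide and -0.173 on different slides. Number and slide could therefore not be told apart in this check. With a replicate block 10776 genes passed and 1833 changed at least 2-fold; with block and slide, 10770 and 1812.

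With quantile normalization the sign turned for Spi1 (-0.12, 0.043 before) and for the medians of lineage factors (-0.12), cytokines (-0.20), class I genes (-0.0019), apoptotic cell uptake (-0.11), iron (-0.16), antioxidant (-0.16), type I interferon (-0.050), inflammasome (-0.17) and niche genes (-0.13, and -0.016 on slide 2 alone). With the mean of probes it turned for Nfatc1 (0.066) and the Siglec list (0.18), with the all-array filter for stellate markers (0.042) and with normexp for platelet markers (-0.017). The cause was not tested.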

Other observations

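Gene families grouped by symbol were also counted, with 51.4% of all tested genes higher and 26.3% lower in CD11c-positive NASH than in wildtype macrophages. Of 306 zinc finger proteins, mostly candidate transcription factors, 161 (52.6%) fell and 54 (17.6%) rose, and their median difference was -0.17 on the log2 scale against 0.16 over all genes. Of 51 Rab GTPases, which direct vesicle traffic, 32 rose and 13 fell, with a median of 0.28 that was 0.026 after quantile normalization. Rab38, known from lysosome-related organelles, and Rab7b, of late endosomes, were 3.47-fold and 2.46-fold higher, and Rab4a, of recycling endosomes, was 10.4-fold lower, from a mean level of 0.34 to -3.04. Of 34 ABC transporters 23 rose and 8 fell. Abcb1b, a multidrug exporter, was 5.20-fold higher. Of 37 receptors with orphan GPCR symbols 23 rose, 14 of them at least 2-fold, and 5 fell. Gpr162 was 6.45-fold higher, and Gpr182, an atypical chemokine receptor of endothelium, was 2.74-fold lower beside the falls of the other endothelial markers. Of 38 serpins 22 fell and 7 rose; Serpina1e, a hepatocyte antitrypsin, was 4.58-fold lower beside the hepatocyte markers. Of 12 S100 proteins 8 rose and 0 fell, with S100a4 2.09-fold higher.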
